A study of Mus musculus with 24 samples.

Results

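The nuclear genes of the mitochondrial respiratory chain and of ATP synthase were described in activated immune cells from mice that lack miR-155 (knockout, KO) and from wild-type mice (WT). The members are the gene symbols that begin with Nduf, Uqcr, Cox4 to Cox8 or Atp5, together with Sdha to Sdhd, and Atp5j was left out. This rule took 91 of the 20673 genes in the count files. They comprise 7 core subunits, 29 accessory subunits and 7 assembly factors of complex I, 4 subunits of complex II, 8 of complex III, 18 of complex IV and 14 of ATP synthase, and 4 related proteins. The rule used names alone and no measured value.

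The respiratory chain passes electrons from NADH (complex I) and succinate (complex II) through ubiquinone, complex III and cytochrome c to oxygen at complex IV, and pumps protons across the inner mitochondrial membrane on the way. ATP synthase lets the protons return and makes ATP. Activated lymphocytes are known to use this pathway together with glycolysis, whereas macrophages and dendritic cells given bacterial lipopolysaccharide (LPS) are known to lean on glycolysis. miR-155 is a microRNA that activated immune cells induce, and it lowers messenger RNAs whose 3′ untranslated region (UTR) pairs with its seed.

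The study read messenger RNA of 4 cell types, each from KO and from WT mice on the C57BL/6J strain, which makes 8 groups of 3 libraries. B cells of the spleen, taken by negative selection, were activated with 25 µg/ml LPS and 6.5 ng/ml IL-4. Dendritic cells were CD11c+ spleen cells activated with LPS (100 ng/ml) plus GM-CSF (20 ng/ml), and all their donors, KO and WT, had carried B16 melanoma cells that make Flt3 ligand. Macrophages came from the peritoneum after thioglycollate and received 100 ng/ml LPS, and naive CD4 T cells (CD4+CD25-CD44-) were activated with CD3/CD28 beads. Activation was shared by KO and WT cells, and there was no resting group. The submitters call the 3 libraries of a group sequencing replicates and name no separate animals, so the p-values measure the spread between libraries, which may be technical.

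Gene counts ran from 7428821 to 14219823 per library, and the members took 1.263 to 1.368% of them in B cells, 1.103 to 1.173% in CD4 T cells, 0.663 to 0.845% in dendritic cells and 0.588 to 0.816% in macrophages. The miR-155 host gene is not among the symbols, and loss of the target could not be looked up in the KO libraries. Summed markers of each labelled cell type were highest in that cell type: B cell markers were at 2922 to 3323 CPM (counts scaled to library size) in B cells, T cell markers at 1462 to 1562 CPM in CD4 T cells, conventional dendritic cell markers at 11150 to 15338 CPM in dendritic cells and macrophage markers at 29828 to 43133 CPM in macrophages. Of the melanoma markers, Tyr, Mlana, Dct and Tyrp1 were at 0 in all dendritic cell libraries. One library stood apart: the third WT macrophage library held the lowest macrophage marker sum, and results that rest on it are given with and without it. In these bulk samples, fewer cells of a type and less RNA per cell cannot be told apart.

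The members with a predicted miR-155 site are shown first, since the KO comparison removes this microRNA. The mature miR-155-5p (RefSeq, GRCm38.p6, chr16:84714143-84714165, plus strand) is printed with its seed, bases 2 to 8, in capitals.

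miR-155-5p: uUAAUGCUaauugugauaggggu

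A match to the seed was found in an annotated 3′ UTR (GENCODE M21, GRCm38) of 10 of the 91 members, or 11%, against 12.8% of the 20011 genes of the files with a 3′ UTR. Member 3′ UTRs were short, with a median of 203 bases against 997 bases over all genes. The 10 members were 3 with an 8mer (AGCATTAA), 5 with a 7mer-m8 (AGCATTA) and 2 with a 7mer-A1 (GCATTAA). The sites of 4 members described below, of which Ndufs1 and Uqcrfs1 were called in a KO comparison and Uqcr11 and Ndufb11 were not, are printed as 30 bases of the transcript strand, with the seed match in capitals. All 4 lie in the 3′ UTR.

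Ndufs1, 8mer: aattgtgtgcaAGCATTAActagtttaata

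Uqcr11, 8mer: ttgatgggtgcAGCATTAAaccttattctt

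Uqcrfs1, 7mer-m8: aaatattatcaAGCATTAgcataataaaac

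Ndufb11, 7mer-m8: agggcctaagaAGCATTActcatccgctgc

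The Ndufs1 window is chr1:63143628-63143657 and the Uqcr11 window chr10:80403007-80403036, both on the minus strand. The Uqcrfs1 window is chr13:30540542-30540571 and the Ndufb11 window chrX:20615376-20615405, also on the minus strand. The Ndufs1 site is in 1 of its 2 annotated transcripts with a 3′ UTR, and each of the other three genes has 1 such transcript. The other members with a site were Ndufb5 (8mer), Ndufb8, Ndufv2 and Atp5g1 (7mer-m8), and Sdhc and Atp5g2 (7mer-A1). Of their annotated transcripts with a 3′ UTR, 1 of 4 held the site for Ndufb5, 1 of 3 for Ndufb8 and 2 of 4 for Atp5g1. For Ndufv2, Sdhc and Atp5g2 it was 1 of 2 each. A match describes the sequence and does not show that the microRNA binds there.

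Few members differed between KO and WT libraries by the test. A member was called when the Benjamini-Hochberg adjusted p of edgeR's quasi-likelihood test, over all genes tested, was under 0.05. In B cells 1 of the 83 members tested was higher in KO and 0 were lower, where 2.09% of all genes were called higher and 1.11% lower. At an unadjusted p under 0.05, 10 members passed in B cells, and DESeq2 also called 0 lower. In CD4 T cells 1 of 83 was higher and 0 lower, against 1.35% and 0.798% of all genes, with 13 at an unadjusted p under 0.05 and again 0 lower by DESeq2. In dendritic cells 1 of 84 was higher and 4 were lower, against 12.2% and 9.42% of all genes. In macrophages 0 of 84 were called in either direction by edgeR, against 0.55% of all genes higher and 0.336% lower, with 1 member at an unadjusted p under 0.05 and 1 called higher by DESeq2.

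The single member called in both lymphocyte types was Ndufs1, the largest subunit of complex I, which carries iron-sulphur clusters on the path from NADH. In B cells Ndufs1 was at 211, 208 and 218 CPM in KO libraries and at 168, 182 and 178 CPM in WT libraries. Every KO library stood above every WT library, with a log2 fold change (KO minus WT) of 0.27 (standard error, SE, 0.05; adjusted p = 0.0079, edgeR, n = 3 each). In CD4 T cells Ndufs1 was at 184, 188 and 186 CPM in KO libraries and at 160, 159 and 163 CPM in WT libraries. The groups again did not overlap, with a log2 fold change of 0.21 (SE 0.04, adjusted p = 0.024, edgeR). These calls rested on few libraries: without the first WT B cell library the adjusted p was 0.075 (edgeR), and in CD4 T cells it was 0.071 to 0.129 without any 1 of the KO libraries or without the second WT library. In the fit of all 24 libraries the adjusted p was 0.075 in B cells and 0.239 in CD4 T cells (edgeR).

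The same gene gave other values in the myeloid cells. In macrophages Ndufs1 was at 133, 140 and 129 CPM in KO libraries and at 122, 127 and 111 CPM in WT libraries. The groups did not overlap, but the difference of 0.18 (SE 0.10, log2) had an adjusted p of 0.39 (edgeR). In dendritic cells it was at 64.9, 65.7 and 73.6 CPM in KO libraries and at 74.4, 63.3 and 70.3 CPM in WT libraries, which overlap (-0.03, SE 0.09, log2). The KO effect on Ndufs1 was not among those found to differ between cell types.

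**Figure D1:**
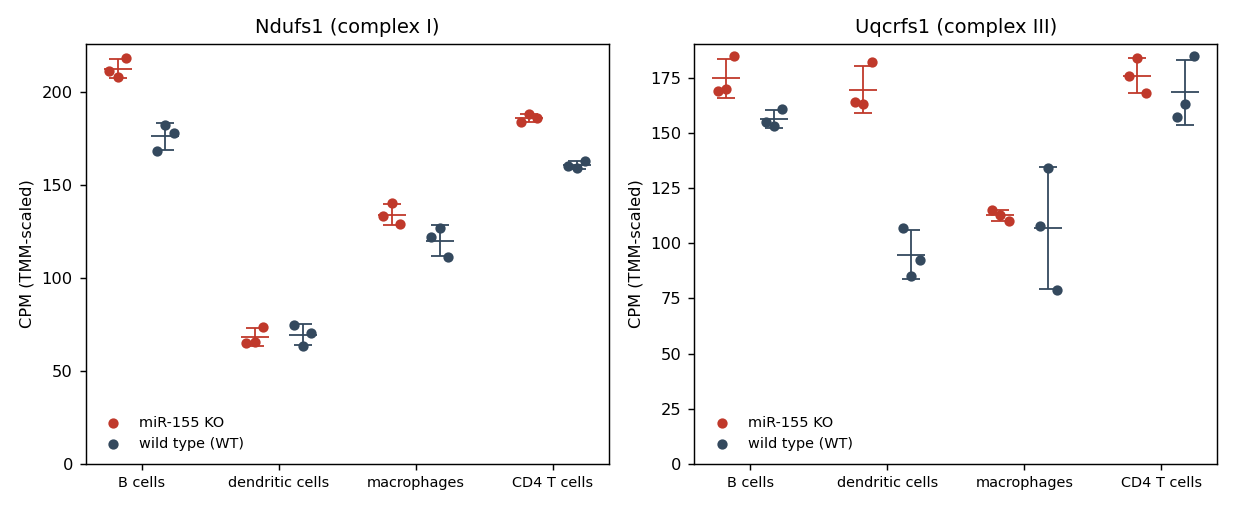
Each point is 1 library of Ndufs1 (left) or Uqcrfs1 (right) in TMM-scaled CPM on an axis from 0, with KO libraries left of WT libraries in each cell type and bars for the mean and SD (n = 3). Ndufs1 was higher in every KO library of B cells, macrophages and CD4 T cells, and Uqcrfs1 stood apart most in dendritic cells, at 163 to 182 CPM in KO libraries and 85.1 to 107 CPM in WT libraries.

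In dendritic cells the member with the smallest p was Uqcrfs1, the Rieske iron-sulphur protein of complex III, which takes electrons from ubiquinol. It was at 164, 163 and 182 CPM in KO libraries and at 107, 85.1 and 92.3 CPM in WT libraries. All KO libraries were above all WT libraries, 1.79-fold on the fitted scale (log2 fold change 0.84, SE 0.09, adjusted p = 0.00023, edgeR). In B cells it was at 169, 170 and 185 CPM in KO libraries and at 155, 153 and 161 CPM in WT libraries, which do not overlap, with a log2 fold change of 0.16 (SE 0.05) that was not called (adjusted p = 0.144, edgeR). Macrophage libraries overlapped (115, 113 and 110 CPM in KO, 108, 134 and 78.9 CPM in WT), and so did CD4 T cell libraries (176, 184 and 168 CPM in KO, 157, 163 and 185 CPM in WT).

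The KO effect on Uqcrfs1 differed between cell types in the fit of all 24 libraries (adjusted p = 0.0088, edgeR). Of the pairs, its effect was smaller in B cells than in dendritic cells by 0.68 on the log2 scale (log2 difference -0.68, SE 0.17, adjusted p = 0.02) and smaller in CD4 T cells than in dendritic cells (-0.77, SE 0.17, adjusted p = 0.0082). It was larger in dendritic cells than in macrophages (0.76, SE 0.17, adjusted p = 0.0072). Of 84 members, 3 had a KO effect that differed between cell types, where 12.6% of all genes were called by this test. The other two were Ndufs3 (adjusted p = 0.044, edgeR) and Cox6a2 (adjusted p = 0.015), which had few counts.

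The 4 members lower in KO dendritic cells were 2 assembly factors and a subunit each of complex I and complex IV. Ndufaf7, a methyltransferase that acts in complex I assembly, was at 9.8, 7.26 and 9.94 CPM in KO libraries and at 19.4, 13 and 15.9 CPM in WT libraries (log2 fold change -0.84, SE 0.18, adjusted p = 0.0084, edgeR). Ndufa4, a small subunit first placed in complex I and now in complex IV, was at 20.1, 21 and 23 CPM in KO libraries and at 31.6, 27.5 and 29.3 CPM in WT libraries (-0.47, SE 0.11, adjusted p = 0.011). In both genes every KO library was below every WT library. The Ndufa4 call was lost without the first KO library (adjusted p = 0.054, edgeR) or the second (0.058), and in the fit of all 24 libraries (0.088).

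Ndufaf5, a hydroxylase of complex I assembly, was at 12.7, 9.59 and 9.52 CPM in KO libraries and at 15.2, 14.7 and 14.5 CPM in WT libraries (log2 fold change -0.48, SE 0.14, adjusted p = 0.039, edgeR). Ndufs3, a core subunit near the ubiquinone site, was at 44, 39 and 40.2 CPM in KO libraries and at 56.8, 46 and 50.1 CPM in WT libraries (-0.31, SE 0.10, adjusted p = 0.048). Neither gene's groups overlapped, but the last 2 calls were lost with DESeq2 (adjusted p of 0.111 for Ndufaf5 and 0.096 for Ndufs3). With edgeR, the Ndufaf5 call was also lost without KO library 2 or 3 or WT library 2 or 3 (0.056 to 0.155), and the Ndufs3 call without any library other than the second WT one (0.072 to 0.182). Ndufs3 in CD4 T cells was at 93.1, 97.3 and 90.7 CPM in KO libraries and 85.3, 78.3 and 81.2 CPM in WT libraries. That difference was not called (0.20, SE 0.05, adjusted p = 0.067, edgeR), while the difference between the KO effects of CD4 T cells and dendritic cells was (0.51, SE 0.14, adjusted p = 0.028).

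Across the members, most fold changes in dendritic cells were below 0. The median log2 fold change of the 84 members was -0.09, beside -0.01 for all genes, and 66 of the 84 were below 0 (78.6%, against 51.5% of all genes). In 12 members every KO library was below every WT library and in 3 every one was above, where 20% and 21.2% of all genes were so placed. The count of lower calls depended on the libraries, at 1 without the second KO library, 2 without the first or the third KO library or without the third WT library, and 11 without the second WT library. Without the first WT library, whose members lay 0.21 (log2) above the dendritic cell mean, 5 members were higher in KO and the median was -0.01. Scaling by library totals shifted the median of all genes to -0.13 and gave 1 member higher and 16 lower. Summed macrophage markers were 106 to 119 CPM in KO and 135 to 343 CPM in WT dendritic cells, with 4 of 9 called lower in KO and none at 0. Conventional dendritic cell markers were at 14591 to 15338 CPM in KO and at 11150 to 11943 CPM in WT libraries, with 1 of 6 tested called higher. Of other marker lists, 3 of 5 plasma cell, 2 of 6 plasmacytoid dendritic cell, 1 of 3 B cell and 1 of 3 CD8 T and NK cell markers tested were called higher in KO dendritic cells and 0 lower. Summed plasma cell markers were at 226 to 264 CPM in KO and 239 to 267 CPM in WT libraries, and plasmacytoid markers at 240 to 285 CPM in KO and 193 to 246 CPM in WT libraries. Summed B cell markers were at 13.4 to 24.6 CPM in KO and 6.4 to 12 CPM in WT libraries, and those of CD8 T and NK cells at 13.2 to 25.8 CPM in KO and 10.5 to 18.3 CPM in WT libraries, with no marker of these 4 lists at 0 in KO or WT. The part of any marker list in the member changes was not tested.

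**Figure D2:**
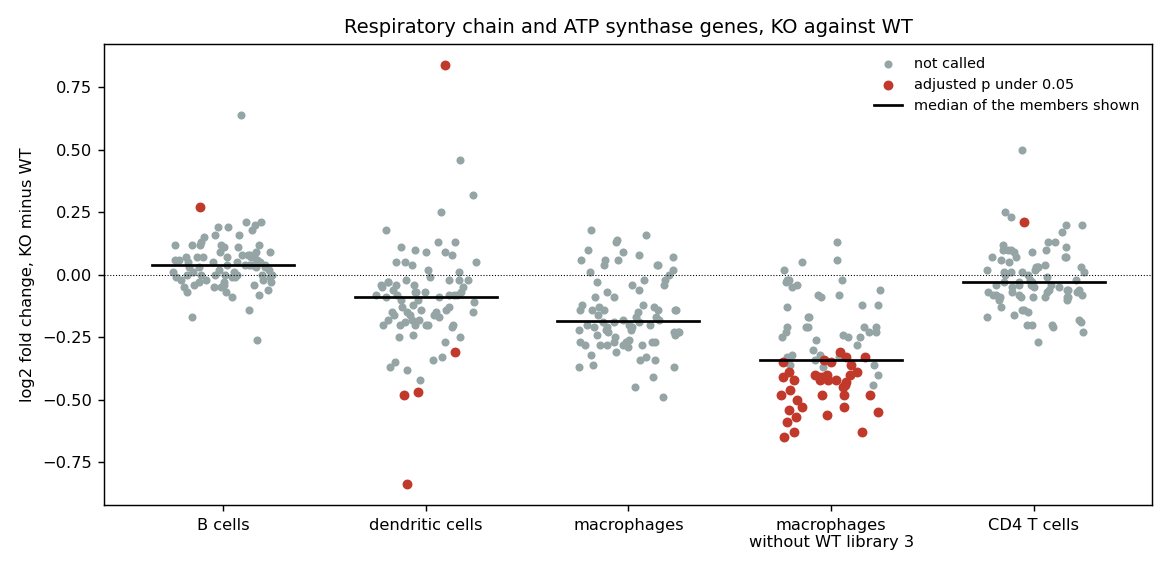
Each point is 1 tested member, with its log2 fold change (KO minus WT) on the vertical axis, red where the edgeR adjusted p was under 0.05, and the black line is the median of the members shown. Cox6a2, with few counts, is not drawn. Only in the column without the third WT macrophage library do many members stand out as called, with a median of -0.34 against -0.19 when all 6 macrophage libraries enter. Over all tested members, leaving out each macrophage library in turn gave medians of -0.34 to -0.06.

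In macrophages no member was called, although 67 of 84 were below 0 (79.8%, against 52.9% of all genes) and the median was -0.19, beside -0.02 for all genes. All KO libraries lay below all WT libraries in 3 of the 84 and above them in 1, against 12.6% and 12.1% of all genes. Cox6a2, which did not pass the filter on low counts there, was also wholly above WT. The SE of a member was 0.18 at the median, against 0.07 in B cells and in CD4 T cells. This spread lay in the WT libraries. The members' median deviation from the macrophage mean was -0.09, -0.01 and -0.15 (log2) in KO libraries and 0.24, 0.31 and -0.30 in WT libraries. Thus 2 WT libraries lay above all KO libraries and the third WT library lay below them.

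**Figure D3:**
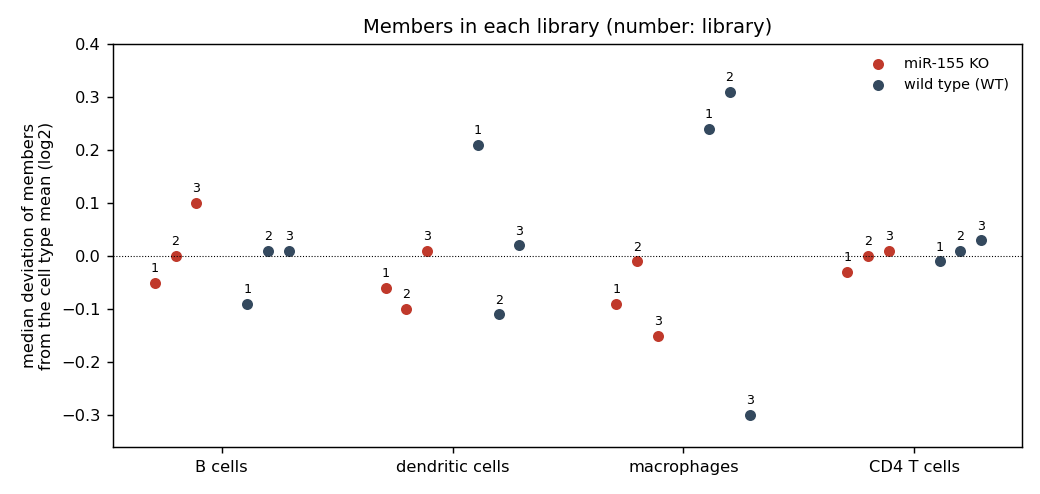
Each numbered point is 1 library, and the vertical axis is the median over 84 members of the log2 difference from the mean of the 6 libraries of that cell type. KO libraries stand left of WT libraries. CD4 T cell libraries lie within -0.03 and 0.03, while WT macrophage libraries span -0.30 to 0.31.

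The third WT macrophage library is the WT library in which the members lay lowest, and leaving it out lowered their median fold change. Leaving out each macrophage library in turn gave 0 to 38 members lower in KO and medians of -0.34 to -0.06. Without the third WT macrophage library, 38 of 85 members were lower in KO macrophages and 1 was higher, where 25.4% of all genes were called and 11.6% were lower. The higher one was Cox6a2, which passed the filter on low counts only when that library was left out, on 32, 17 and 7 counts in KO libraries and 2 in each of the remaining WT libraries. Of the complexes, 17 of 29 accessory subunits and 3 of 7 core subunits of complex I were lower, 9 of 14 members of ATP synthase, 5 of 13 of complex IV, 2 of 8 of complex III and 1 of 4 of complex II. Ndufa3, an accessory subunit, was at 51.7, 60.7 and 52 CPM in KO libraries and at 86.8 and 88.6 CPM in the first 2 WT libraries, but at 52.4 CPM in the third WT library. Its log2 fold change was -0.65 (SE 0.10, adjusted p = 0.0051, edgeR) without that library and -0.45 (SE 0.20, adjusted p = 0.3) with it. In this gene the third WT library lay within the KO range and made the groups overlap. Sdhb, the iron-sulphur subunit of complex II, was at 181, 192 and 179 CPM in KO libraries and at 251, 272 and 151 CPM in WT libraries. Here the third WT library lay below all KO libraries, and without it the log2 fold change was -0.48 (SE 0.08, adjusted p = 0.0088, edgeR).

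The accessory subunit Ndufv3, of the part of complex I that binds NADH, kept its groups apart with all 6 macrophage libraries. It was at 62.6, 69.6 and 72.7 CPM in KO libraries and at 111, 105 and 75.5 CPM in WT libraries (log2 fold change -0.49, SE 0.16), and it was not called (adjusted p = 0.174, edgeR). Its KO effect in CD4 T cells exceeded that in macrophages by 0.64 (SE 0.17, adjusted p = 0.041, log2, fit of 24 libraries). Without the third WT macrophage library 42 of 84 members had a KO effect that differed between cell types, against 29.2% of all genes.

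Other lists also varied between the macrophage libraries. Macrophage markers were at 34238, 37697 and 34891 CPM in KO libraries and at 39736, 43133 and 29828 CPM in WT libraries, with none of 9 at 0. Neutrophil markers were at 671, 677 and 737 CPM in KO libraries and at 672, 664 and 844 CPM in WT libraries. Of these, 4 of 8 in KO and 2 of 8 in WT were at 0. Stromal and mesothelial markers were at 450, 358 and 818 CPM in KO libraries and at 266, 161 and 400 CPM in WT libraries, with none of 6 at 0. Cell cycle genes were at 868, 850 and 1102 CPM in KO libraries and at 765, 722 and 1068 CPM in WT libraries. For the neutrophil, stromal and mesothelial, and cell cycle lists, the third library was the highest in KO as well as in WT. Their part in the member values was not tested.

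Both members called higher in any KO comparison, Ndufs1 and Uqcrfs1, were among the 10 with a miR-155 site, and the 4 called lower were not. In B cells 6 of the 10 members with a site had every KO library above every WT library, against 4 of 73 without a site and 11.6% of all genes. Their median log2 fold change in B cells was 0.14, beside 0.03 for members without a site. Wholly below WT in B cells were 0 of 10 with a site and 2 of 73 without, against 10.3% of all genes. In CD4 T cells 2 of 10 stood wholly above and 1 wholly below WT, where 11.8% and 10.7% of all genes did, with a median of -0.02. Of the 73 members without a site, 10 stood wholly above and 9 wholly below WT in CD4 T cells, with a median of -0.03. In dendritic cells 1 of 10 with a site and 2 of 74 without stood above, where 21.2% of all genes did, with medians of 0.03 and -0.10. In macrophages 1 of 10 with a site and 0 of 74 without did, where 12.1% of all genes did, with medians of -0.13 and -0.19. Wholly below WT in dendritic cells were 0 of 10 with a site and 12 of 74 without, against 20% of all genes. In macrophages the counts below were 0 of 10 and 3 of 74, against 12.6% of all genes. No test was made over these sets.

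Among the site members that were not called, Uqcr11, a small subunit of complex III, was at 7.48, 7.52 and 8.73 CPM in KO B cells and at 3.83, 6.77 and 4.39 CPM in WT B cells. The groups did not overlap, but at this depth the log2 fold change of 0.64 had an SE of 0.18 (adjusted p = 0.075, edgeR). Ndufb11, an accessory subunit of complex I, was at 127, 130 and 144 CPM in KO B cells and at 107, 118 and 123 CPM in WT B cells (0.20, SE 0.07, adjusted p = 0.111). In CD4 T cells Ndufb11 was at 95, 91 and 97.3 CPM in KO libraries and at 83, 81.9 and 81.2 CPM in WT libraries. Its groups were apart there too (0.20, SE 0.05, adjusted p = 0.055, edgeR). Ndufv2, which has a 7mer-m8, had log2 fold changes near 0 in B cells (-0.01, SE 0.06) and CD4 T cells (0.01, SE 0.05), and Atp5g1 was wholly below WT in CD4 T cells (-0.13, SE 0.06, not called). Members with a site thus had fold changes on both sides of 0.

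The Atp5g genes encode the same mature c subunit of the ATP synthase rotor, and Atp5g3, which has no site in its annotated 3′ UTRs, was wholly above WT in both lymphocyte types. It was at 281, 278 and 301 CPM in KO B cells and at 235, 252 and 265 CPM in WT B cells (log2 fold change 0.19, SE 0.06, adjusted p = 0.08, edgeR). In CD4 T cells it was at 254, 262 and 249 CPM in KO libraries and 230, 235 and 235 CPM in WT libraries (0.12, SE 0.04, adjusted p = 0.117). Uqcrc2, a core subunit of complex III, was wholly below WT in CD4 T cells, at 223, 235 and 225 CPM in KO libraries and 244, 265 and 257 CPM in WT libraries (-0.17, SE 0.04, adjusted p = 0.059). None of these passed the threshold.

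Genes of neighbouring pathways were counted from lists chosen for this comparison. Of 20 tested genes of the tricarboxylic acid cycle and pyruvate entry, 1 was higher and 4 were lower in KO dendritic cells, among them Idh3a (log2 fold change -0.69, SE 0.14), Fh1 (-0.39, SE 0.10) and the pyruvate carrier subunit Mpc2 (-0.62, SE 0.17). Of 40 assembly factors outside the Nduf names, 2 were lower in KO dendritic cells and 0 higher, namely Uqcc2 of complex III (-0.66, SE 0.15) and Acad9 of complex I (-0.24, SE 0.07). Of 10 tested genes of ATP and phosphate exchange, 2 were higher in KO dendritic cells, Slc25a25 (0.52, SE 0.13) and Vdac3 (0.30, SE 0.08), and 2 were lower. One of the lower genes, the ADP/ATP carrier Slc25a5, was at 168 ± 7.61 CPM in KO and 223 ± 27.2 CPM in WT dendritic cells (SD, n = 3 each; log2 fold change -0.41, SE 0.09). Of 20 tested electron carriers and other dehydrogenases, Gpd2 was higher (0.59, SE 0.15) and Etfb lower (-0.69, SE 0.14). The list summed to 638 to 702 CPM in KO and 560 to 610 CPM in WT dendritic cells. Gpd2 alone was at 291 ± 30.9 CPM in KO and 194 ± 44.2 CPM in WT, and the median log2 fold change of the 20 was -0.15. Of 20 regulators of mitochondrial biogenesis, 2 were higher, Nrf1 (0.32, SE 0.09) and Gabpb1 (0.34, SE 0.10), which encode or form factors that bind promoters of respiratory genes, and 2 were lower. These counts are read against 12.2% of all genes higher and 9.42% lower in dendritic cells. In macrophages Pcx, pyruvate carboxylase, was higher in KO (24.9 ± 4.22 against 11.7 ± 1.52 CPM, adjusted p = 0.043, edgeR), the 1 of 20 in its list. In B cells Pdhx (0.33, SE 0.07, log2) and Myc (0.24, SE 0.06), each 1 of 20 in its list, were higher in KO. Of 22 cell cycle genes, Mcm2 was higher in KO B cells (0.37, SE 0.05) and CD4 T cells (0.22, SE 0.04). It was higher in KO dendritic cells too (0.39, SE 0.09). Ckmt1, 1 of 11 in ATP and phosphate exchange, was lower in KO CD4 T cells (-1.98, SE 0.47). Of all genes, 2.09% were higher and 1.11% lower in B cells, and 1.35% and 0.798% in CD4 T cells. The 13 mitochondrially encoded subunits are not among the symbols of the files and were not analysed here.

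More members were called between cell types than between genotypes. The 12 WT libraries were compared in 1 fit over 84 tested members. On TMM-scaled CPM, dendritic cells had the lowest mean of the 4 cell types for 48 of the 84 (38 by library totals), and 26 of the 84 were below all 3 other cell types by the test, as were 14.4% of all genes. Reads without a gene feature were 59.63 to 61.12% of all counts in dendritic cell files, against 51.43 to 53.47% in the files of the other cell types, and their part in the member levels was not tested. WT B cells were higher than WT dendritic cells in 48 members and lower in 6, where 37.4% of all genes were higher and 41.2% lower. WT CD4 T cells were higher than WT dendritic cells in 39 and lower in 13, where 38.8% and 40.6% of all genes were. WT dendritic cells were higher than WT macrophages in 6 and lower in 52, where 38.1% and 39.4% of all genes were. WT B cells were higher than WT CD4 T cells in 29 and lower in 3, against 25.6% and 24.7% of all genes. The third WT macrophage library enters this shared fit, and without it 46 were higher and 5 lower in B cells than in CD4 T cells, 20 were lower in CD4 T cells than in dendritic cells and 53 were lower in CD4 T cells than in macrophages. The count higher in B cells than in CD4 T cells was 17 or 18 without WT B cell library 2 or 3 or WT CD4 T cell library 1 or 3, and the count lower was 1 without B cell library 1 or 3 or CD4 T cell library 1 or 3. Without WT B cell library 1 there were 3 members lower in B cells than in dendritic cells, and without WT dendritic cell library 1 there were 2. Without WT macrophage library 2 there were 10 higher in dendritic cells than in macrophages.

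How macrophages and lymphocytes compare depended on the scaling. TMM scaling, which centres most genes, gave 27 members higher and 24 lower in WT B cells than in WT macrophages (38.8% and 41.6% of all genes), whereas library totals gave 50 higher and 10 lower. WT CD4 T cells had 20 members higher and 34 lower than WT macrophages (39.9% and 41.8% of all genes), whereas library totals gave 45 higher and 7 lower. Library totals moved the median of all genes to 0.47 and 0.61 in these pairs, and the median of the members relative to it was 0.09 and -0.19. For WT dendritic cells against WT macrophages they gave 16 higher and 29 lower, with an all-gene median of 0.40 and a member median of -0.58 relative to it. Library totals gave 18 higher and 5 lower for WT B cells against WT CD4 T cells. The order of dendritic cells below B cells and CD4 T cells held on both scales, with 55 higher and 4 lower in B cells and 51 higher and 9 lower in CD4 T cells by library totals.

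The KO libraries, which the WT fit did not use, were compared in the same way. Of the members higher in WT B cells than in WT dendritic cells, 47 of 48 were also higher in KO B cells than in KO dendritic cells, and 50 of 52 members lower in dendritic cells than in macrophages were lower in the KO libraries too. Of the 29 higher in WT B cells than in WT CD4 T cells, 28 were higher in KO libraries, which called 61 in all. No member was called in opposite directions in any of the 6 pairs of cell types. Summed cell cycle genes were higher in lymphocytes, at 9496 to 9917 CPM in B cells and 10171 to 10696 CPM in CD4 T cells. They were at 733 to 793 CPM in dendritic cells and 722 to 1102 CPM in macrophages. All 22 were higher in both WT lymphocyte types than in either WT myeloid type. Of the 22, 18 were higher and 2 lower in WT dendritic cells than in WT macrophages (38.1% and 39.4% of all genes). The part of cell division in the member levels was not tested.

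The assembly factors of complex I, which build the enzyme and are not part of it, were mostly higher in lymphocytes. Of 7, 6 were higher and 1 was lower in WT B cells than in WT dendritic cells, and the same counts were found for WT B cells and for WT CD4 T cells against WT macrophages. Of all genes, 37.4 to 39.9% were higher and 41.2 to 41.8% lower in these 3 pairs. Library totals gave the same counts in these 3 pairs. For WT CD4 T cells against WT dendritic cells they gave 6 higher and 1 lower, with the median of all genes at 0.18. In that pair Ndufaf5 was close on TMM-scaled CPM, at 16.7 ± 1.68 and 14.8 ± 0.362 CPM. Assembly factors took 1.36 ± 0.0153% of the member counts in WT B cells and 1.28 ± 0.0265% in WT CD4 T cells, against 1.01 ± 0.0361% in WT dendritic cells and 0.793 ± 0.0651% in WT macrophages (SD, n = 3 each). This share does not depend on the scaling. In KO cells it was 1.22 to 1.29% in B cells and 0.77 to 0.93% in dendritic cells, below the 1.35 to 1.38% and 0.97 to 1.04% of the WT libraries of each, with no overlap. The groups overlapped in CD4 T cells (1.13 to 1.28% in KO, 1.26 to 1.31% in WT) and in macrophages (0.7 to 0.77% in KO, 0.73 to 0.86% in WT). Shares of other classes were apart too. In dendritic cells, core subunits of complex I took 7.91 to 8.12% in KO and 8.72 to 8.92% in WT libraries. There complex III took 11.2 to 11.3% in KO and 9.67 to 10.1% in WT libraries. Core subunits in CD4 T cells (8.52 to 8.67% in KO, 7.74 to 8.21% in WT) did not overlap either. Nor did complex III in macrophages (8.24 to 8.62% in KO, 8 to 8.04% in WT). Complex III summed to 811 ± 23.6 CPM in KO and 730 ± 62.9 CPM in WT dendritic cells. There Uqcrfs1 alone was at 170 ± 10.7 CPM in KO and 94.7 ± 11 CPM in WT, while Uqcrc1 was at 181 and 195 CPM. Core subunits summed to 809 ± 17.9 CPM in KO and 765 ± 3.61 CPM in WT CD4 T cells. Of these, Ndufs1 was at 186 ± 2.18 CPM in KO and 161 ± 1.89 CPM in WT, while Ndufv1 was at 119 and 124 CPM.

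Ndufaf4 had the largest log2 difference of the members between WT B cells and WT dendritic cells. It was at 26.3, 27.5 and 26.2 CPM in WT B cells and at 20.3, 22.5 and 20.9 CPM in WT CD4 T cells. It was at 2.73, 3.02 and 1.62 CPM in WT dendritic cells and at 6.54, 6.28 and 6.53 CPM in WT macrophages. The log2 difference was 3.43 (SE 0.17, adjusted p = 8.5e-10, edgeR) for WT B cells against WT dendritic cells and 2.04 (SE 0.14, adjusted p = 2.5e-08) for WT B cells against WT macrophages. In KO libraries these differences were 3.13 (SE 0.20) and 2.07 (SE 0.17).

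Ndufaf6 was likewise higher in lymphocytes, at 17.8 ± 1.58 CPM in WT B cells and 16.7 ± 0.942 CPM in WT CD4 T cells, against 4.04 ± 0.269 CPM in WT dendritic cells and 4.36 ± 0.872 CPM in WT macrophages (SD, n = 3 each). Ndufaf3, known to act as a partner of Ndufaf4, ran the other way. It was at 9.14, 9.87 and 9.45 CPM in WT B cells, at 2.67, 5.22 and 3.36 CPM in WT CD4 T cells, at 17.2, 13.6 and 13.3 CPM in WT dendritic cells and at 20.9, 21.7 and 14.6 CPM in WT macrophages. Its log2 difference was -1.97 (SE 0.23, adjusted p = 4.4e-06, edgeR) for WT CD4 T cells against WT dendritic cells and 1.33 (SE 0.23, adjusted p = 0.00041) for WT B cells against WT CD4 T cells.

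**Figure D4:**
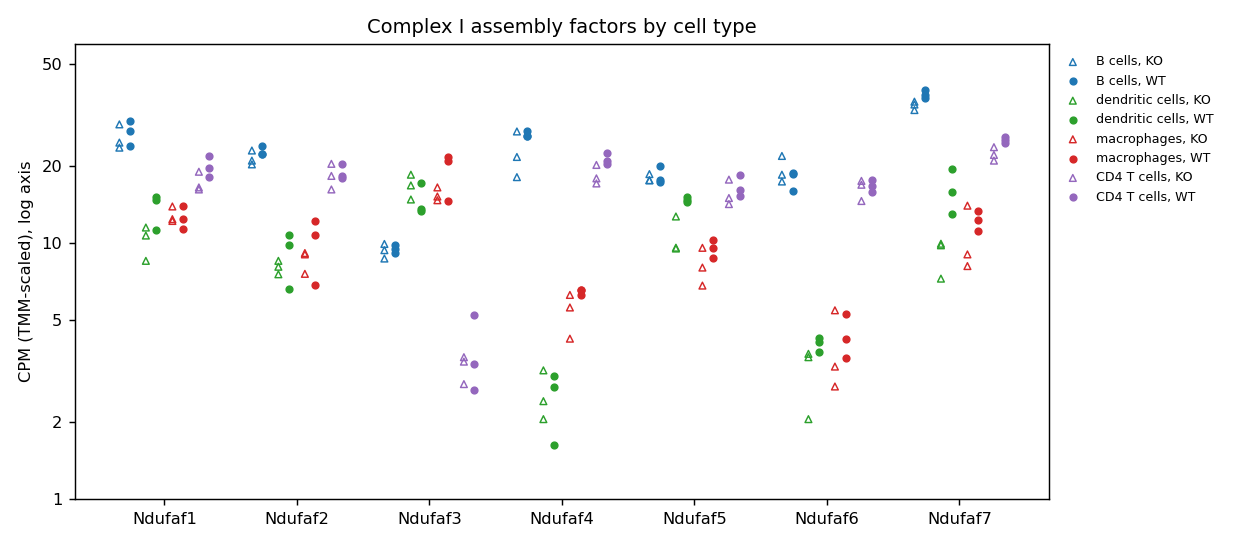
Each symbol is 1 library, with the TMM-scaled CPM of the 7 Ndufaf genes on a log axis, open triangles for KO and filled circles for WT, and colours for the cell types. Ndufaf4 and Ndufaf6 lie above 14 CPM in every lymphocyte library and below 7 CPM in every myeloid library, while Ndufaf3 is lowest in CD4 T cells.

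Within complex I, many accessory subunits were low in dendritic cells. Ndufa5 was at 38.4, 44.3 and 42.5 CPM in WT B cells and at 33.8, 36.9 and 34.5 CPM in WT CD4 T cells, against 12.2, 6.64 and 8.72 CPM in WT dendritic cells. WT macrophages held 40.4, 37.2 and 29.4 CPM, so the dendritic cells were the ones set apart (log2 difference -1.95, SE 0.18, adjusted p = 6.4e-07, edgeR, for WT dendritic cells against WT macrophages). In all, 23 of 29 accessory subunits were lower in WT dendritic cells than in WT macrophages, and 0 were higher. Of all genes, 39.4% were lower and 38.1% higher. By library totals 12 were lower and 2 higher, and the accessory subunits took 0.150, 0.113 and 0.126% of gene counts in WT dendritic cells and 0.162, 0.171 and 0.113% in WT macrophages, which overlap. The core subunit Ndufs8 had another order, at 121 ± 4.82 CPM in WT B cells, 64.6 ± 2.12 CPM in WT CD4 T cells, 44.4 CPM in WT dendritic cells and 38.1 ± 11.7 CPM in WT macrophages on average. Ndufv3 split the lymphocytes, at 36.3 ± 3.69 CPM in WT B cells and 87.7 ± 4.46 CPM in WT CD4 T cells (-1.28, SE 0.15, adjusted p = 1.6e-05, edgeR).

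Complex II is also an enzyme of the tricarboxylic acid cycle. On TMM-scaled CPM its catalytic subunit Sdha averaged 376 ± 5.57 CPM in WT B cells, 376 ± 10 CPM in WT CD4 T cells, 306 ± 15 CPM in WT dendritic cells and 370 ± 48.7 CPM in WT macrophages (SD, n = 3 each). On the same scale the membrane subunit Sdhc was at 39.6 ± 2.04 CPM in WT B cells, 48.9 ± 3.69 CPM in WT CD4 T cells, 25.6 ± 3.16 CPM in WT dendritic cells and 77.9 ± 9.24 CPM in WT macrophages. By TMM scaling all 4 subunits were lower in WT dendritic cells than in WT macrophages, as were 39.4% of all genes. By library totals 3 of the 4 were. The one that was not is Sdha, at 314 ± 14.2 CPM in WT dendritic cells and 283 ± 31 CPM in WT macrophages by library totals (SD, n = 3 each). With all libraries 0 of the 4 were called in the KO comparison of any cell type, and without the third WT macrophage library Sdhb was called lower in KO macrophages.

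ATP synthase took the largest share of the member counts, led by Atp5b, the catalytic subunit, and its partner Atp5a1. Its share was 49.4 ± 0.586% in WT B cells and 49.4 ± 0.857% in WT CD4 T cells, against 40.4 ± 1.07% in WT dendritic cells and 39.8 ± 1.94% in WT macrophages. Atp5b alone made up 20.5 to 21.4% of member counts in WT B cells and 20.1 to 22.1% in WT CD4 T cells, against 14.9 to 16.4% in WT dendritic cells and 12.4 to 15.7% in WT macrophages. The share of complex IV went the other way, with 10.3 ± 0.376% in WT B cells and 9.67 ± 0.46% in WT CD4 T cells, against 15 ± 0.712% in WT dendritic cells and 14.4 ± 1.24% in WT macrophages. Cox4i1, its regulatory subunit, made up 3.96 to 4.23% in WT B cells and 2.72 to 3.08% in WT CD4 T cells, against 6.41 to 7.54% in WT dendritic cells and 4.94 to 6.76% in WT macrophages. These shares do not depend on the scaling, and the KO libraries gave 48.9, 48.4, 40.8 and 40.9% for ATP synthase in B cells, CD4 T cells, dendritic cells and macrophages. All classes share a common total, so a lower share of ATP synthase goes with higher shares elsewhere. Of all gene counts, complex IV took 0.125 to 0.139% in WT B cells and 0.105 to 0.114% in WT CD4 T cells. It took 0.1 to 0.133% in WT dendritic cells and 0.076 to 0.125% in WT macrophages. On TMM-scaled CPM its sums were 1211 ± 76.1, 926 ± 37.7, 1111 ± 171 and 1381 ± 364 CPM in the same order.

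**Figure D5:**
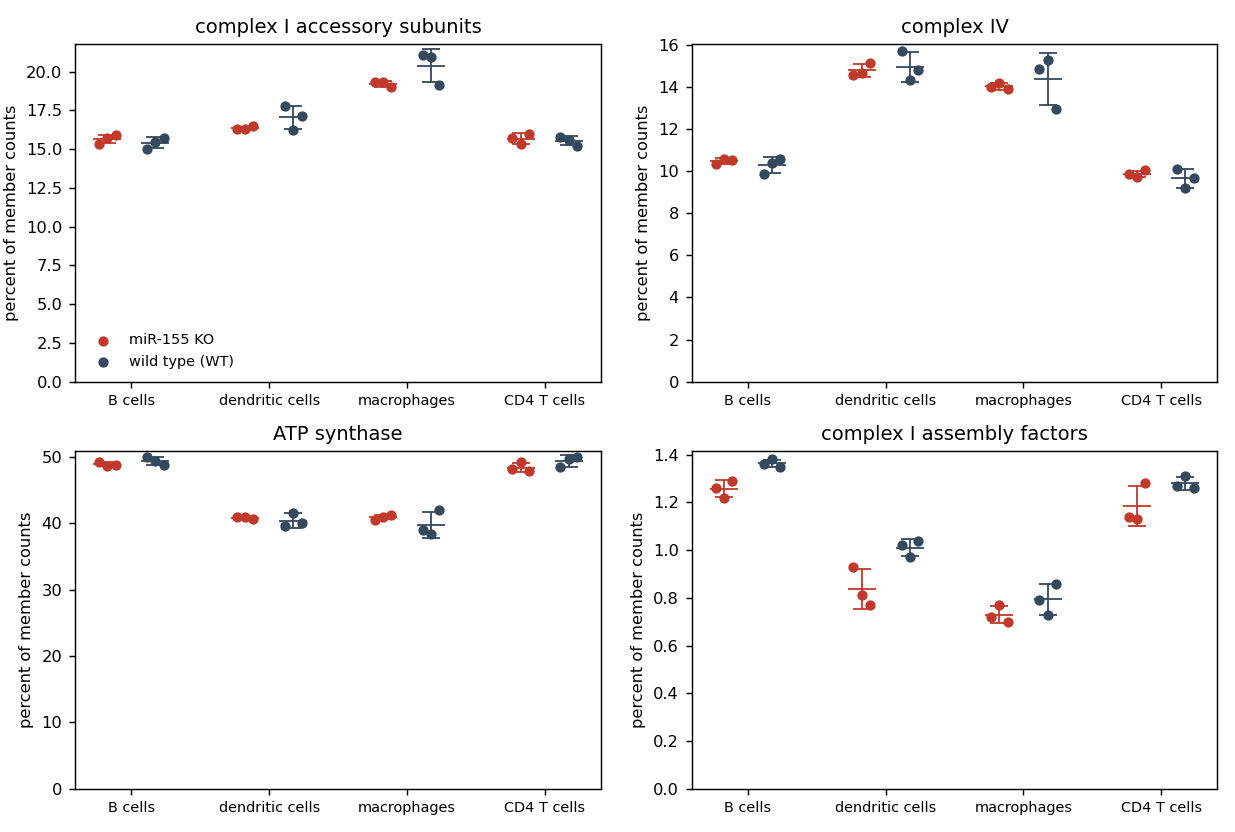
Each point is 1 library, KO left of WT, with the percent of all member counts that a group of genes took, on axes from 0, and bars for the mean and SD (n = 3). ATP synthase lies near 49% in both lymphocyte types and near 40% in both myeloid types. The share of complex IV lies the other way round, and that of the complex I accessory subunits is largest in macrophages. All classes share a common total, so these are shares and not levels.

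Per coding kilobase, a rough common scale for different genes that leaves out UTR length, Atp5b and Cox4i1 had the highest means over the WT cell types. Atp5b averaged 1557 ± 40 CPM per kilobase in WT B cells and 722 ± 48.9 CPM per kilobase in WT dendritic cells. Cox4i1 averaged 954 ± 57.6 CPM per kilobase in WT B cells and 1013 ± 195 CPM per kilobase in WT dendritic cells. Atp5a1 stood above Cox4i1 in WT B cells, at 986 CPM per kilobase. In WT CD4 T cells Atp5a1 (790) and Atp5g3 (552) stood above Cox4i1 (547). In complex III the highest was Uqcrb and the lowest Uqcr11, at 218 and 39.5 CPM per kilobase over all WT libraries. In complex II Sdhb stood at 215 and Sdhc at 94.6, and among core subunits of complex I Ndufv2 stood at 173 and Ndufs1 at 60.3 CPM per kilobase. Coding lengths were taken from GENCODE M21, and the short members hold few positions, so their levels are less certain.

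Atp5l, the g subunit of ATP synthase, and Ndufb4, an accessory subunit of complex I, were lower in the other cell types than in macrophages. Atp5l was at 3.13 to 7.58 CPM in the 9 WT libraries of the other cell types, against 94.3, 104 and 67.7 CPM in WT macrophages (log2 difference -4.10, SE 0.21, adjusted p = 1.3e-09, edgeR, for WT B cells against WT macrophages). In KO macrophages Atp5l was at 79.5, 86 and 73.3 CPM. Ndufb4 was at 1.25 to 2.59 CPM in the WT libraries of the other cell types, against 36.7, 34.7 and 22.5 CPM in WT macrophages (-4.04, SE 0.23, for WT dendritic cells against WT macrophages). In KO macrophages Ndufb4 was at 28.7, 28.6 and 24.8 CPM. RefSeq names copies of both (the pseudogenes Atp5l-ps1, Atp5l-ps2 and Atp5l2-ps, and the genes Ndufb4b and Ndufb4c), and none of them is among the symbols of the files. In all, 12 members have copies named after them, 0 of these 19 copies are listed, and the handling of reads that match several places is not given in the sources used here. The part of such reads in the macrophage values was not tested, and the level of both genes is uncertain.

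Several alternative isoforms, among them forms known from muscle, lung or testis, were near absent. Cox7b2, Cox8b and Cox8c had 0 counts in all 24 libraries, Ndufa4l2 in 22 and Cox4i2 in 15. Cox7a1, the heart and muscle form, held 36 counts over the 3 WT macrophage libraries, beside 940 for Cox7a2. Cox6a2, the other heart and muscle form, was at 3.18, 1.23 and 1.14 CPM in KO dendritic cells and 2.13, 2.9 and 1.62 CPM in WT dendritic cells. It was the only member above all other WT cell types in WT dendritic cells by the test, at a mean of 2.22 CPM against 0.0585 to 0.223 CPM. In macrophages it was at 3.52, 1.89 and 0.769 CPM in KO libraries and at 0.208, 0.188 and 0.102 CPM in WT libraries, or 56 against 5 counts over 3 libraries each. These macrophage groups did not overlap, and the KO libraries differed among themselves by more than 4 times (log2 difference of the KO effects of dendritic cells and macrophages -3.79, SE 0.84, adjusted p = 0.0071, edgeR). Cox7a2l, counted here among the related proteins, varied against Cox7a2. Per coding kilobase it made up 41.9 ± 3.23% of the Cox7a1, Cox7a2 and Cox7a2l sum in WT B cells and 27.9 ± 3.01% in WT CD4 T cells, against 60.2 ± 0.245% in WT dendritic cells and 58.4 ± 5.01% in WT macrophages. Its log2 difference was -2.07 (SE 0.18, adjusted p = 2.5e-07, edgeR) for WT CD4 T cells against WT macrophages. Among the c subunit genes Atp5g3 led everywhere, at 74 ± 0.554% in WT CD4 T cells and 56.9 ± 4.57% in WT macrophages.

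The members' promoters were also searched, since the rule did not use sequence. RefSeq promoter windows (GRCm38.p6, 250 bases before to 50 after the start) were on hand for 72 members and 15656 genes. On either strand, the NRF1 motif was in 19 of the 72 (26.4%), against 7.61% of all genes. The ETS motif CCGGAAG was in 16 (22.2%, against 13.4%) and the YY1 motif AAGATGGCG in 6 (8.33%, against 2.29%).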

How the data were processed

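Messenger RNA was read as 50-nucleotide paired ends in 24 libraries. The authors deposited whole-number read counts per gene symbol, per the file contents; cutadapt, STAR and the mm9 build stand in the submitters' processing notes, without versions. For the counting tool, its strand setting and reads with several matches the method is not given in the sources used here. The count files close with lines that name no gene. Reads without a feature (59.63 to 61.12% of all counts in dendritic cell files, 51.43 to 53.47% in the others) entered neither library sizes nor tests.

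Members, gene lists and tests were chosen with earlier results of these data known. Libraries were grouped by their labels; WT B cell libraries carry more than 1 numbering there, and titles were followed. Each KO comparison was fitted on its 6 libraries and the cell types on 12 WT libraries, with edgeR's quasi-likelihood test (edgeR 4.0.16, limma 3.58.1, R 4.3.3), TMM scaling, the filterByExpr filter and Benjamini-Hochberg adjustment over all genes tested at 0.05; KO effects were compared between cell types in a fit of all 24 libraries. The SE of a log2 fold change is its size over the root of the F statistic, and CPM uses TMM-scaled library sizes of all 24 libraries. Library deviations use log2(CPM + 0.5). The scripts were tested on simulated data.

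Named members were those called, or the 4 with the smallest p; the 4 highest and 4 lowest fold changes of each cell type pair among called members of 5 CPM or more whose groups do not overlap; the highest and lowest per coding kilobase of each complex; isoform sets; complex II; members with a miR-155 site; and up to 3 called genes of each other list. Alternatives were RLE factors, DESeq2 1.42.0, no filter, a filter of 1 CPM in 3 libraries, all 24 libraries, a replicate block, leaving out each library, the KO libraries for cell type pairs, and library totals, which were chosen after the data were seen. In macrophages libraries of the same number deviated together (correlations of 0.13, 0.31 and 0.39 across genes), a pairing that rests on the data since no label gives one; with the number as a block 0 members were called higher and 0 lower there. Libraries of a group differed by more than sampling noise, with a chi-square per gene of 2.08 to 160.71 over 24 pairs.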

Additional observations from a re-analysis of the deposited data

Results flagged for a closer look

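The KO effect differed between cell types by the test of the difference itself (edgeR, fit of all 24 libraries) in 3 members. For Uqcrfs1 the adjusted p was 0.0088 over the 4 cell types. Its pairs gave 0.02 for B cells against dendritic cells, 0.0082 for CD4 T cells against dendritic cells and 0.0072 for dendritic cells against macrophages, and leaving out each library in turn gave 4.5e-05 to 0.034 over the 4 cell types.

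For Cox6a2 the adjusted p was 0.015 over the cell types and 0.0071 for dendritic cells against macrophages (edgeR), on 56 counts in KO and 5 in WT macrophages. For Ndufs3 it was 0.044 over the cell types and 0.028 for CD4 T cells against dendritic cells, and the call over the cell types was lost with RLE factors (0.05) and without a filter (0.053), with 0.0014 to 0.105 when each library was left out in turn.

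For Ndufv3 the pair of CD4 T cells and macrophages gave an adjusted p of 0.041 (edgeR), while its KO effect was called in neither cell type alone.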

How the results depend on the processing

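Counts of members (higher, lower) in KO comparisons changed by over 1.5 times as follows. In B cells 3 were higher without a filter, 5 with a replicate block and 0 in the fit of all 24 libraries, and 1 was lower with the block. In dendritic cells 2 were higher with RLE factors and 2 with the block, and 2 were lower with DESeq2 and 16 by library totals. In macrophages 1 was higher with DESeq2 and with all 24 libraries, which gave 3 lower. In CD4 T cells 2 were higher without a filter and 0 with all 24 libraries, and 1 was lower without a filter and by library totals. Library totals gave 5 members whose KO effect differed between cell types. Outside macrophages not every number correlated best with itself (correlations of 0.21, 0.04 and 0.25 in B cells, -0.03, 0.15 and -0.10 in dendritic cells, 0.04, 0.07 and -0.25 in CD4 T cells). In these cell types 2, 1 and 1 of 3 were best with their own number.

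Of the WT pairs, B cells had 61 members higher than CD4 T cells in KO libraries and 18 by library totals, and 1 lower without a filter, 5 by library totals and 5 with all 24 libraries. Against macrophages B cells had 49 higher in KO libraries, and 50 higher and 10 lower by library totals. CD4 T cells had 20 lower than dendritic cells with all 24 libraries, and 45 higher and 7 lower than macrophages by library totals. Dendritic cells had 10 higher than macrophages in KO libraries and 16 by library totals, with 29 lower. The causes were not tested.

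Leaving out each library gave 0 to 2 members higher and 0 to 1 lower in B cells (0 higher without WT 1, 2 without WT 2, 1 lower without KO 3), 1 to 5 and 1 to 11 in dendritic cells, 0 to 1 and 0 to 38 in macrophages, and 0 to 2 and 0 to 1 in CD4 T cells (2 and 1 without WT 1). KO effect medians ranged from -0.01 to 0.07, -0.18 to -0.01, -0.34 to -0.06 and -0.05 to -0.02 in these cell types. The pairs ranged over 17 to 46 higher and 1 to 5 lower (B and CD4 T cells), 41 to 55 and 2 to 6 (B and dendritic cells), 22 to 34 and 19 to 35 (B cells and macrophages), 34 to 44 and 9 to 20 (CD4 T and dendritic cells), 15 to 20 and 26 to 53 (CD4 T cells and macrophages), and 4 to 10 and 46 to 66 (dendritic cells and macrophages). KO effects differed between cell types in 2 to 42 members, with 42 without macrophage WT 3 and 5 without dendritic cell WT 2.

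Uncalled members that changed sign were Atp5g2 (-0.02) and Ndufb8 (-0.03) in dendritic cells and Ndufv2 (-0.01) in CD4 T cells by library totals, and Sdhc in macrophages with all 24 libraries (-0.01). Others did so without 1 library, with ranges of -0.25 to 0.02 (Atp5g1), -0.17 to 0.25 (Ndufb11), -0.08 to 0.07 (Sdhc), -0.35 to 0.04 (Uqcr11) and -0.08 to 0.29 (Uqcrfs1) in macrophages, -0.09 to 0.02 for Ndufs1 in dendritic cells, -0.05 to 0.02 for Ndufv2 in B cells, and -0.01 to 0.03 for Ndufv2 and -0.01 to 0.09 for Sdhc in CD4 T cells. Of the gene-level values, 1555 kept their direction and side of the threshold, 74 lost a call, 25 gained one and 19 changed sign. Members near 1 CPM cannot show small differences at this depth.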
